A study of Mus musculus with 6 samples.

Results

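The MHC class II antigen presentation genes measured here were 10 of the 46983 gene IDs in the expression table, and all 10 passed the filter on low values. They were taken by symbol from the annotation, and the rule for taking them used no measured value, although the group was proposed with earlier results of these data known. They were the chains of the classical class II molecules (H2-Aa, H2-Ab1 and H2-Eb1), the invariant chain Cd74, the peptide editor H2-DM (H2-DMa, H2-DMb1 and H2-DMb2), its inhibitor H2-O (H2-Oa and H2-Ob), and the class II transactivator Ciita. The bulk RNA-seq compared splenic B cells of WT and Hif1a KO mice, with 3 libraries of each, after 3 days under conditions that drive switching to IgA. HIF-1α is a transcription factor stabilised at low oxygen. The question asked of these genes was whether their RNA differed between B cells with and without it.

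Both groups received the same culture and the same mix of agents, namely TGF-β, BAFF and IL-5 at 10 ng/ml each with LPS at 5 μg/ml, and neither group is a resting or untreated control. Per the methods of the study, the input was follicular B cells sorted from spleen. The Hif1a KO mice were on the C57BL/6 background and carried floxed Hif1a alleles with Mb1-cre, which acts from early stages of the B lineage on. The WT mice were littermates, either cre-positive with 1 floxed allele or cre-negative with floxed alleles only, and neither this genotype nor the age of the mice is given per library. Nothing in the labels says that the 3 libraries of a group came from separate mice, so p-values measure the spread between these libraries, which may be partly technical.

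B cells take up antigen through their receptor, cut it in endosomes and show the peptides to CD4+ T cells on class II molecules, which are heterodimers of an α and a β chain. The invariant chain guides new class II molecules to the endosome and blocks the groove, H2-DM then exchanges the remaining invariant chain fragment for antigen peptides, and H2-O, made mainly by B cells, holds H2-DM back. CIITA binds no DNA itself. It is recruited by factors that sit on the X and Y boxes of these promoters, and it is required for class II transcription.

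The genes lie close together in the class II region, except for Ciita and Cd74. In GENCODE vM21 on GRCm38, 8 of the 10 fall within 224 kb of chromosome 17, from H2-Oa to H2-Eb1 (chr17:34092340-34316674), and Ciita lies on chromosome 16 (chr16:10480059-10528418). The H2-Ob gene covers chr17:34238903-34254414 on the plus strand, and H2-Aa is the one of the 8 on the minus strand.

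Upstream sequence from RefSeq (GRCm38.p6) was used for 7 of the genes in 8 windows on chromosome 17, and none was used for H2-Ab1, Cd74 or Ciita. It was searched on both strands over 250 bases before the start for the X box core AGCAAC and the Y box core GATTGG. Shown are the 120 bases just before the start for each of the 7 genes except H2-DMa, whose windows held neither core in that stretch. The sequences are written 5′ to 3′ on the strand of the gene, with the X core, the Y core or their reverse complements in capitals.
H2-Ob (chr17:34238785-34238904, plus strand): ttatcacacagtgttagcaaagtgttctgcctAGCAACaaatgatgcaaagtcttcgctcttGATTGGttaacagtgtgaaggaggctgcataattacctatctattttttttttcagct
H2-Oa (chr17:34092259-34092378, plus strand): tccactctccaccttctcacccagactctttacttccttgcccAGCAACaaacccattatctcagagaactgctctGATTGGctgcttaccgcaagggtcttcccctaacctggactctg
H2-Eb1 (chr17:34305747-34305866, plus strand): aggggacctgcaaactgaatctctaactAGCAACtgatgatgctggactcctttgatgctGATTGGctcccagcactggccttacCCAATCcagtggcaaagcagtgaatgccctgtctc
H2-Aa (chr17:34287824-34287943, minus strand): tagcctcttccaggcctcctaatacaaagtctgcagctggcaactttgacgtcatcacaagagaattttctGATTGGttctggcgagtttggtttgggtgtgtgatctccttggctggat
H2-DMb1 (chr17:34153071-34153190, plus strand): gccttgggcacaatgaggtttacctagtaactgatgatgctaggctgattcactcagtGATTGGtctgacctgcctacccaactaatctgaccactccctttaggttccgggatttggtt
H2-DMb2 (chr17:34145129-34145248, plus strand): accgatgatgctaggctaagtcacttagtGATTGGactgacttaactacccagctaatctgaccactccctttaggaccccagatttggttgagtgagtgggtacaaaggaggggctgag

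An AGCAAC followed by a GATTGG on the strand of the gene, with their first bases 20 to 45 bases apart, stood in 3 of the 8 windows. The spacing was 30 bases in H2-Ob, 33 in H2-Oa and 32 in H2-Eb1. Of 32851 RefSeq promoters of the same length, 24 (0.0731%) held this arrangement, while AGCAAC alone was in 12.2% and GATTGG alone in 14.6%. H2-Aa, H2-DMb1 and H2-DMb2 held GATTGG without AGCAAC, at 49, 62 and 91 bases before the start, and of the 2 windows of H2-DMa, 1 held GATTGG at 199 bases before the start and the other neither core. The cores ACGTG and GCGTG, to which HIF factors can bind, were in 0 of the 8 windows and in 38.6% of all promoters. Only exact letters were counted, so near matches upstream of GATTGG, such as ggcaac in H2-Aa and agtaac in H2-DMb1, were left out. A window without AGCAAC may therefore still hold an X box. A match of these letters is a description of the sequence, and binding was not measured.

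The FPKM values were scaled to 25030210 to 37222477 reads per library, as recovered from the steps between values. Whether this total counts all mapped reads or those on genes, and single reads or pairs, is not given in the sources used here. On the same scale, each of the 10 genes had at least 974 reads in every library. Along the first principal component of all genes tested, which held 54.7% of the variance, WT replicates 2 and 3 stood apart at -26.2 and -25.9, and WT replicate 1 (15.7) lay with the Hif1a KO libraries (7.1 to 19.5). Results are therefore also given without WT replicate 1. That library was picked by its place in these same data, so p-values without it are a description and no independent test. Hif1a itself was at 36.5, 49.8 and 45.8 FPKM in the WT libraries and at 46.5, 45.6 and 52.8 FPKM in the Hif1a KO libraries (log2 fold change 0.14, limma adjusted p = 0.701). A value over the whole gene does not check the loss of a floxed part. Of the B-cell markers, Ms4a1, which encodes CD20, was at 326 to 445 FPKM.

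Across all 10 genes, no difference between the genotypes passed the test, and the largest by fold was in H2-Ob. The test was limma on log2(FPKM + 1) over 13312 genes with a mean of at least 0.5 FPKM, and a gene was called at a Benjamini-Hochberg adjusted p under 0.05. It called 0 of the 10 genes and 0 of 13312 genes in all (0.0%), and voom on the recovered reads also called 0 of each. At an unadjusted p under 0.05, H2-Ob was 1 of 10, against 929 genes in all (6.98%). The log2 fold change of Hif1a KO over WT was above 0 in 9 of the 10 genes, against 5604 of 13312 genes in all. Cd74, 1 of the 9, turned below 0 under quantile normalization, and Ciita was at -0.0004. The median was 0.08, against -0.03 over all genes tested. The values of the groups overlapped in all 10 genes, while they did not overlap in 10.1% of all genes tested. With all 6 libraries, the 95% interval of the log2 difference lay within 0.5 of 0 in 9 of the 10 genes and in 70.9% of all genes tested. In this fit, a change of that size or more lies outside the interval for these 9. Without WT replicate 1, their estimates ran from -0.04 in Ciita to 0.30 in H2-Aa (SE 0.10). No intervals were taken for that fit, so the count of 9 does not extend to it.

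**Figure D1:**
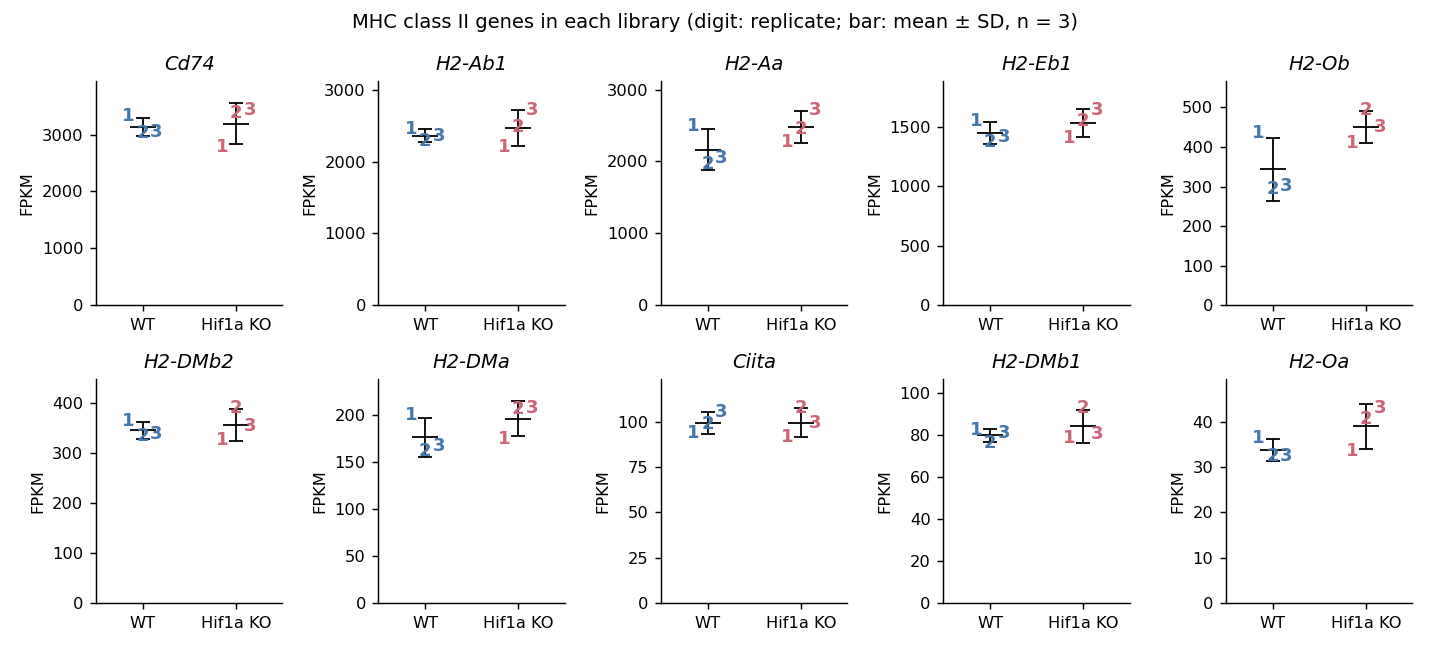
FPKM (linear axes from 0) of the 10 class II genes in the 3 WT (blue) and 3 Hif1a KO (red) libraries, with a digit for each replicate and bars for the mean ± SD, in order of mean level. The groups overlap in every panel, and in H2-Ob WT replicates 2 and 3 (293 and 300.3 FPKM) lie below the other 4 libraries (410 to 493 FPKM).

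The classical class II chains were among the most abundant RNAs of these cells. H2-Aa (ENSMUSG00000036594), the α chain of I-A, had 2489, 1961 and 2042 FPKM in WT replicates 1 to 3 and 2265, 2455 and 2712 FPKM in the Hif1a KO replicates. WT replicates 2 and 3 were the lowest, and WT replicate 1 was above Hif1a KO replicates 1 and 2. The means were 2164 ± 284 FPKM in WT and 2478 ± 224 FPKM in Hif1a KO (SD, n = 3 each), and limma gave a log2 fold change of 0.20 (SE 0.12, adjusted p = 0.633).

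H2-Ab1 (ENSMUSG00000073421), the β chain that pairs with H2-Aa, was at 2455, 2282 and 2349 FPKM in WT and at 2202, 2482 and 2713 FPKM in Hif1a KO. The WT values lay inside the range of the Hif1a KO values. The log2 fold change was 0.06 (SE 0.10, limma adjusted p = 0.835). H2-Eb1 (ENSMUSG00000060586), the β chain of I-E, had 1547, 1371 and 1416 FPKM in WT and 1402, 1551 and 1638 FPKM in Hif1a KO, again with overlap (log2 fold change 0.08, limma adjusted p = 0.747). The I-E α gene is a pseudogene in C57BL/6, and the locus listed as H2-Ea-ps was at 0.0582 to 0.255 FPKM, against at least 1371 FPKM of its β chain.

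Cd74 (ENSMUSG00000024610), the invariant chain, had the highest level of the 10 genes and stood at rank 16 of all genes by mean FPKM. It was at 3317, 3035 and 3046 FPKM in WT and at 2773, 3372 and 3426 FPKM in Hif1a KO. Hif1a KO replicate 1 was the lowest library and Hif1a KO replicates 2 and 3 the highest, so the spread within Hif1a KO (SD 362 FPKM) was larger than the difference between the means (3133 and 3190.3 FPKM). The log2 fold change was 0.02, with a 95% interval from -0.23 to 0.27 (limma adjusted p = 0.952), and its sign changed under quantile normalization (-0.06).

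H2-DM is the heterodimer that edits the peptides on class II. H2-DMa (ENSMUSG00000037649), the α chain, was at 199.98, 161 and 167 FPKM in WT and at 174, 206.55 and 207.13 FPKM in Hif1a KO. WT replicates 2 and 3 were the lowest here too, and WT replicate 1 lay inside the Hif1a KO range (log2 fold change 0.16, SE 0.11, limma adjusted p = 0.658). Mice have a pair of β chain genes, and the more abundant was H2-DMb2 (ENSMUSG00000037548), with 365, 334 and 338 FPKM in WT and 327, 390.5 and 354 FPKM in Hif1a KO (log2 fold change 0.04, limma adjusted p = 0.856). H2-DMb1 (ENSMUSG00000079547) had 82.1, 76.2 and 80.9 FPKM in WT and 78.6, 92.8 and 80.6 FPKM in Hif1a KO (log2 fold change 0.07, limma adjusted p = 0.754).

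The ratio of H2-DMb2 to H2-DMb1 was 4.44, 4.39 and 4.18 in the WT libraries and 4.15, 4.21 and 4.39 in the Hif1a KO libraries, so H2-DMb2 was about 4 times as abundant per length in each of the 6. The genes are near copies. Of the stretches of 100 bases in their exons, 179 occur in both, which is 11.3% of those of H2-DMb1 and 10.3% of those of H2-DMb2, and reads from there may have been split or dropped. H2-DMa shares 360 exon bases (10.4% of its exon length) with Brd2 on the opposite strand, and how such reads were counted is not given in the sources used here.

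H2-O, the inhibitor of H2-DM, held the largest difference of the 10 genes. H2-Ob (ENSMUSG00000041538), its β chain, was at 436, 293 and 300.3 FPKM in WT replicates 1 to 3 and at 410, 493 and 449 FPKM in Hif1a KO replicates 1 to 3. All 3 Hif1a KO libraries were above WT replicates 2 and 3, and WT replicate 1 was above Hif1a KO replicate 1. The means were 343 ± 80.6 FPKM in WT and 451 ± 41.6 FPKM in Hif1a KO (SD, n = 3 each), 31.2% higher in Hif1a KO. The log2 fold change was 0.41 (SE 0.16, 95% interval 0.03 to 0.79) with an unadjusted p of 0.0388 and an adjusted p of 0.626 in limma, and the exact permutation test, two-sided, gave p = 0.2, where 3 against 3 libraries cannot go below 0.1.

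Without WT replicate 1, H2-Ob passed the test with a log2 fold change of 0.60 (SE 0.09, limma adjusted p = 0.0168), the only one of the 10 genes to do so. Over all genes, the same fit called 1251 (9.4%), of which 485 were higher in Hif1a KO (3.64%) and 766 lower (5.75%). With limma's library weights, which were estimated from the same values and lowest for WT replicate 1, H2-Ob was also called (0.55, adjusted p = 0.0315). Both fits discount WT replicate 1 on the basis of these same data and are no separate evidence. Without WT replicate 2 or WT replicate 3, the log2 fold change of H2-Ob was 0.31 or 0.33 with an adjusted p of 1.0 in each.

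H2-Oa (ENSMUSG00000024334), the α chain, was the least abundant of the 10 genes, with 36.5, 32.5 and 32.4 FPKM in WT and 33.5, 40.6 and 43.1 FPKM in Hif1a KO. WT replicates 2 and 3 were the lowest and Hif1a KO replicate 1 was below WT replicate 1 (log2 fold change 0.20, SE 0.11, limma adjusted p = 0.626; without WT replicate 1, 0.25 and adjusted p = 0.188). In FPKM as given, H2-Ob exceeded its partner H2-Oa 9.02 to 12.2 times in the 6 libraries. This factor depends on the gene lengths used. Divided by the exon lengths of GENCODE vM21 instead, the mean levels were 120.3 for H2-Ob and 30.06 for H2-Oa. BC051537, which shares 321 exon bases with H2-Oa on the opposite strand, was at most at 0.261 FPKM.

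The ratio of H2-O to H2-DM, taken as the summed FPKM of the H2-O genes over that of the H2-DM genes within a library, does not depend on the scaling between libraries. It was 0.731, 0.570 and 0.568 in WT and 0.765, 0.773 and 0.767 in Hif1a KO. All Hif1a KO libraries were above all WT libraries, but WT replicate 1 was nearer to the Hif1a KO libraries than to the other WT libraries. The means were 0.623 ± 0.093 and 0.768 ± 0.004 (SD, n = 3 each). H2-Ob makes up most of the numerator, so this ratio is no separate evidence from H2-Ob. The ratio of H2-Aa to H2-Ab1 was 1.01, 0.859 and 0.869 in WT and 1.03, 0.989 and 1.0 in Hif1a KO, with WT replicate 1 inside the Hif1a KO range. Cd74 over the sum of the classical chains was 0.511, 0.541 and 0.525 in WT and 0.472, 0.520 and 0.485 in Hif1a KO, which overlap.

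**Figure D2:**
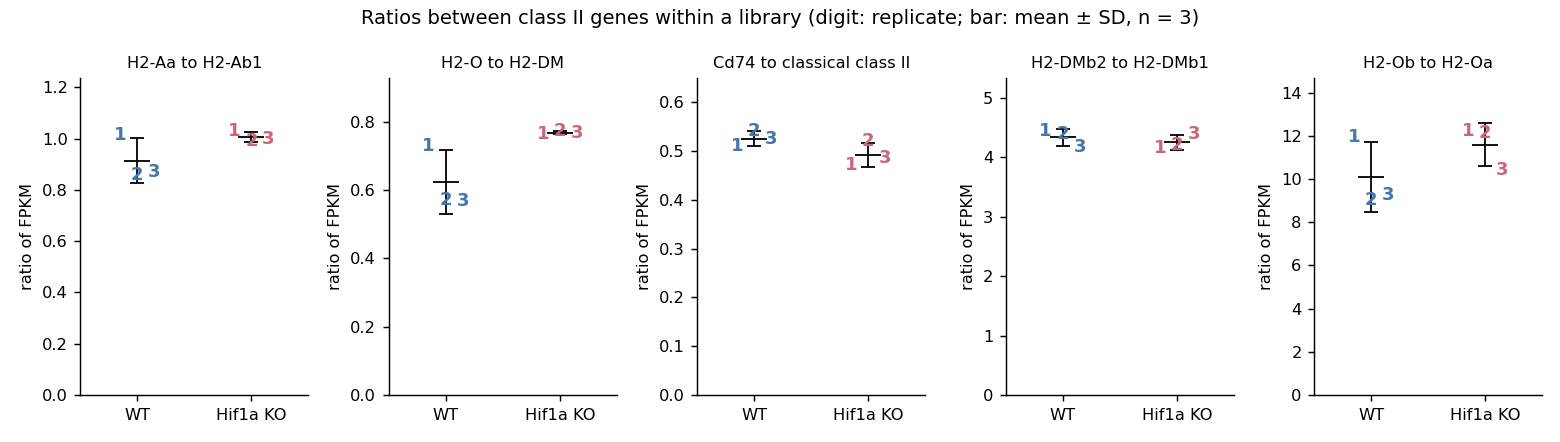
Ratios of FPKM between class II genes within a library (linear axes from 0), with a digit for each of the 3 WT (blue) and 3 Hif1a KO (red) replicates and bars for the mean ± SD. Only in the ratio of H2-O to H2-DM do the Hif1a KO values (0.765 to 0.773) lie above all WT values (0.568 to 0.731), and the other 4 ratios overlap between the groups.

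Ciita (ENSMUSG00000022504), the transactivator on which class II transcription depends, was nearly level between the genotypes. It had 93.9, 99.2 and 105.6 FPKM in WT and 91.5, 108 and 99.6 FPKM in Hif1a KO, and the WT values lay inside the Hif1a KO range. The means were 99.5 ± 5.89 and 99.6 ± 8.15 FPKM (SD, n = 3 each), and the 95% interval of the fold ran from 0.875 to 1.14 (limma adjusted p = 0.999). Unlike the other 9 genes, Ciita was not higher in WT replicate 1 than in WT replicates 2 and 3. Dexi, on the opposite strand, shares 329 exon bases with Ciita, 3.5% of its exon length.

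**Figure D3:**
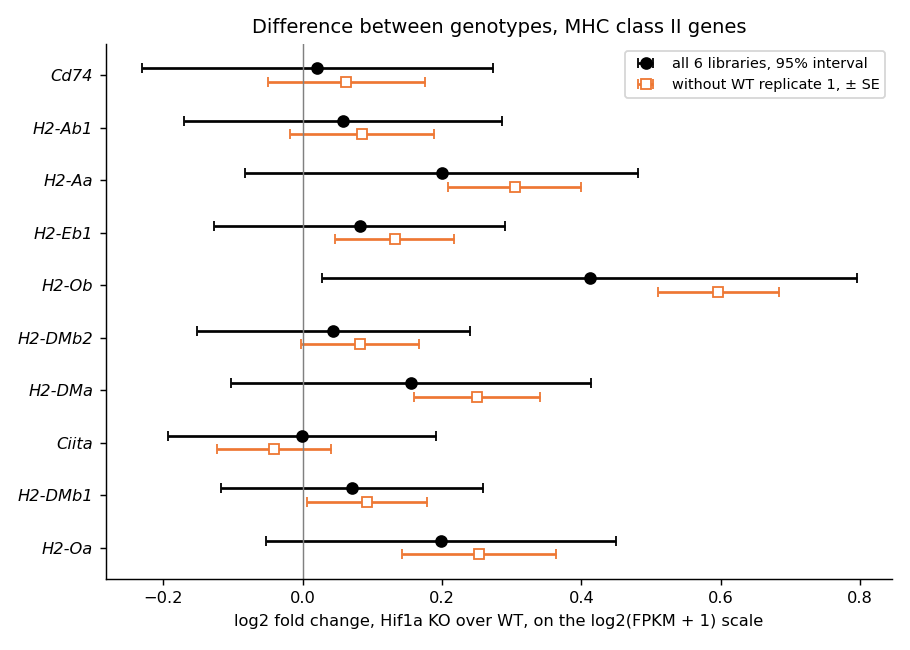
Log2 fold change of Hif1a KO over WT on the log2(FPKM + 1) scale for each class II gene, with all 6 libraries and its 95% interval (black circles) and without WT replicate 1 ± SE (open squares). The interval of H2-Ob with all libraries starts at 0.03 and those of the other 9 genes span 0, and without WT replicate 1 H2-Ob reaches 0.60.

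The order of the levels by mean FPKM over the 6 libraries was Cd74, H2-Ab1, H2-Aa, H2-Eb1, H2-Ob, H2-DMb2, H2-DMa, Ciita, H2-DMb1 and H2-Oa, at 3162, 2414, 2321, 1488, 397, 351, 186, 99.6, 81.9 and 36.5 FPKM. The ranges of the libraries overlapped between H2-Ab1 and H2-Aa, between H2-Ob and H2-DMb2, and between Ciita and H2-DMb1, and no other neighbours in this order overlapped. The order depends on the length by which the reads were divided. The FPKM values imply a length of 817 bases for H2-Aa and 1631 bases for H2-Ob, while their exons in GENCODE vM21 cover 3798 and 5380 bases. Divided by the latter lengths, the order was Cd74, H2-Eb1, H2-Ab1, H2-Aa, H2-DMb2, H2-Ob, H2-DMa, Ciita, H2-DMb1 and H2-Oa. Ratios between different genes, such as Cd74 to the classical chains, depend on these lengths too. Ratios of 1 gene to itself between libraries do not.

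As a group, the 10 genes also varied between libraries of the same genotype. Their summed level was 11021, 9646 and 9878 FPKM in WT and 9757, 11190.2 and 11723 FPKM in Hif1a KO, which is 1.38 ± 0.071% and 1.46 ± 0.124% of all FPKM (SD, n = 3 each). WT replicate 1 lay inside the Hif1a KO range in 10 of 10 genes and above both other WT libraries in 9 of 10. The share of all genes with these 2 patterns was not counted. Along the first principal component of all genes tested, WT replicate 1 also lay with the Hif1a KO libraries. In 4 genes (H2-Aa, H2-DMa, H2-Oa and H2-Ob), all Hif1a KO libraries were above WT replicates 2 and 3, which held for 18.4% of all genes tested. In 4 others (H2-Ab1, H2-DMb2, Cd74 and Ciita), Hif1a KO replicate 1 was the lowest of the 6. The highest library was Hif1a KO replicate 3 in 6 genes and Hif1a KO replicate 2 in 4. In bulk RNA, fewer cells with these RNAs and less RNA per cell cannot be told apart.

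**Figure D4:**
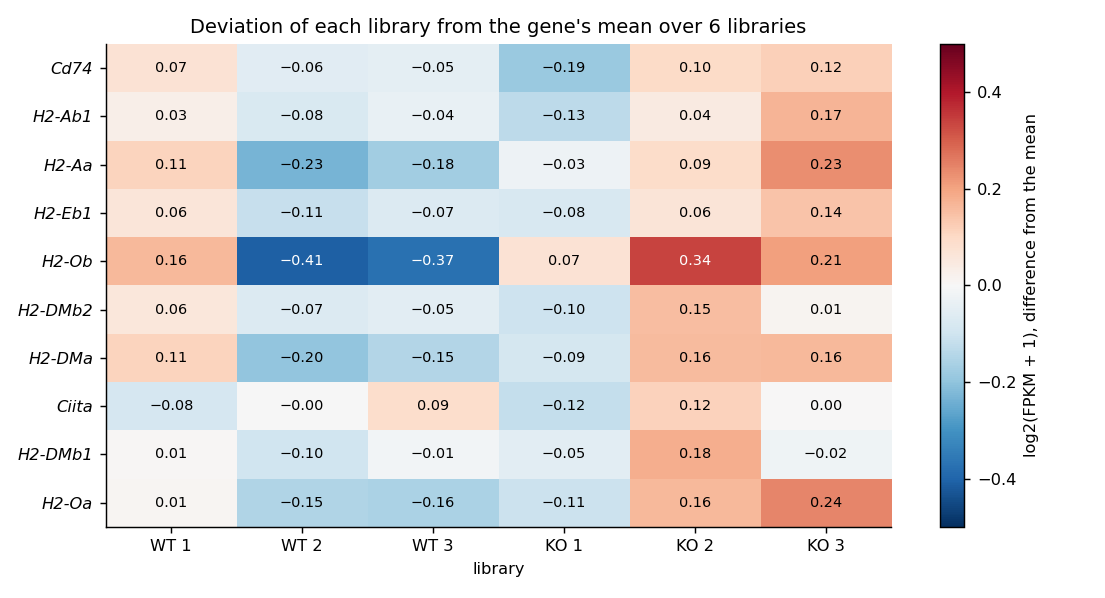
Difference of each library from the mean of the gene over the 6 libraries, on the log2(FPKM + 1) scale, for the 10 class II genes in order of mean level (red above, blue below the mean). H2-Ob has the widest spread, from -0.41 in WT replicate 2 to 0.34 in Hif1a KO replicate 2, and 10 of 10 genes are above their mean in Hif1a KO replicate 2.

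Among 9265 other genes with a mean of at least 5 FPKM, those whose profile over the 6 libraries was most like the mean profile of the 10 genes were Lyrm2, Coro1a, Necap2, Pcyt2 and Retreg3. Their root mean square difference from it was 0.0172 to 0.0253 on the log2 scale. Coro1a, an actin-binding protein of leukocytes, was at 1942, 1666 and 1683 FPKM in WT and at 1739, 2041 and 1956 FPKM in Hif1a KO. These genes were picked from many over only 6 libraries, and the likeness is a description.

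The factors that carry CIITA to DNA showed no common direction. Of the 10 genes of the promoter complex and the CIITA partners, 5 had a higher and 5 a lower mean in Hif1a KO. The median log2 fold change was 0.00 and 0 passed the adjusted threshold. At an unadjusted p under 0.05 was 1 gene of the 10, against 6.98% of all genes tested. That gene was Nfyc, a subunit of the Y box factor NF-Y, at 42.4, 40.3 and 43.3 FPKM in WT and 47.3, 46.6 and 46.8 FPKM in Hif1a KO (log2 fold change 0.16). Its partner subunit Nfya was at 64.9, 68.7 and 73.2 FPKM in WT and at 64.5, 64.05 and 60.04 FPKM in Hif1a KO (log2 fold change -0.13). Kat2b, an acetyltransferase that works with CIITA, was at 23.7 to 24.2 FPKM in WT and 24.7 to 26.3 FPKM in Hif1a KO. The groups did not overlap in these 3 of 10 genes, against 10.1% of all genes tested.

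Of the 10 genes known to act on Ciita transcription, 0 passed the adjusted threshold or an unadjusted p under 0.05, with a median log2 fold change of 0.12. Prdm1, which encodes BLIMP-1, a repressor of Ciita in plasma cells, was at 40.0, 17.1 and 16.7 FPKM in WT and at 41.3, 29.2 and 55.9 FPKM in Hif1a KO. WT replicates 2 and 3 were again the lowest. Prdm1 differed 3.34-fold between its highest and its lowest library and Ciita 1.18-fold. Without WT replicate 1, Prdm1 rose in Hif1a KO (log2 fold change 1.22, limma adjusted p = 0.0369), as did Spi1 (0.31) and Irf8 (0.33), so that 3 of 10 were called higher, against 3.64% of all genes tested. Spi1 and Irf8 encode transcription factors of B cells and myeloid cells and were named after their values were seen.

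Endosomal antigen processing had 2 of 10 genes with a higher mean and 8 with a lower mean in Hif1a KO. The median log2 fold change was -0.08 and 0 genes passed the adjusted threshold. At an unadjusted p under 0.05 were 2 of the 10, against 6.98% of all genes tested. Ctsl, a protease that can cut the invariant chain, was the only 1 of these 10 without overlap, against 10.1% of all genes tested. It was at 4.31, 5.26 and 3.22 FPKM in WT and 2.72, 2.22 and 3.16 FPKM in Hif1a KO (log2 fold change -0.50, limma unadjusted p = 0.0228). Of the 6 genes of class II surface turnover, Cd83 and Cd9 are named because their groups did not overlap. Cd83, which stabilises class II at the surface, was at 166 to 177 FPKM in WT and 178 to 204 FPKM in Hif1a KO. Cd9, a tetraspanin, was at 39.4 to 49.2 FPKM in WT and 34.97 to 38.5 FPKM in Hif1a KO. The median of these 6 genes was -0.13 and 0 passed the adjusted threshold.

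Class I presentation, the other route, had a median log2 fold change of -0.04 over 13 genes, 5 with a higher and 8 with a lower mean in Hif1a KO, and 0 past either threshold. Nlrc5, the counterpart of Ciita for class I genes, was at 66.7, 112 and 109 FPKM in WT and at 80.2, 77.2 and 69.6 FPKM in Hif1a KO, and without WT replicate 1 it fell by 0.55 on the log2 scale (limma adjusted p = 0.0139). In that fit Ciita was at -0.04 (adjusted p = 0.77). The difference between the transactivators was not tested.

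Of the 8 costimulatory genes, 2 had a higher and 6 a lower mean in Hif1a KO. The median log2 fold change was -0.12 and 0 passed the adjusted threshold. At an unadjusted p under 0.05 was 1 gene of the 8, against 6.98% of all genes tested. Without WT replicate 1, 4 of the 8 passed, against 9.4% of all genes tested, and all 4 were named after their values were seen. Cd80, Cd86 and Tnfsf4, which signal to T cells through CD28 and OX40, fell by 1.25, 0.60 and 1.70 on the log2 scale, and Cd24a rose by 1.33. Among the other genes of the class II region, 3 of 4 were tested and 0 passed with all libraries, with a median of 0.21. Without WT replicate 1, Btnl2, a butyrophilin-like gene next to the class II genes, rose by 0.55 (limma adjusted p = 0.0276).

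**Figure D5:**
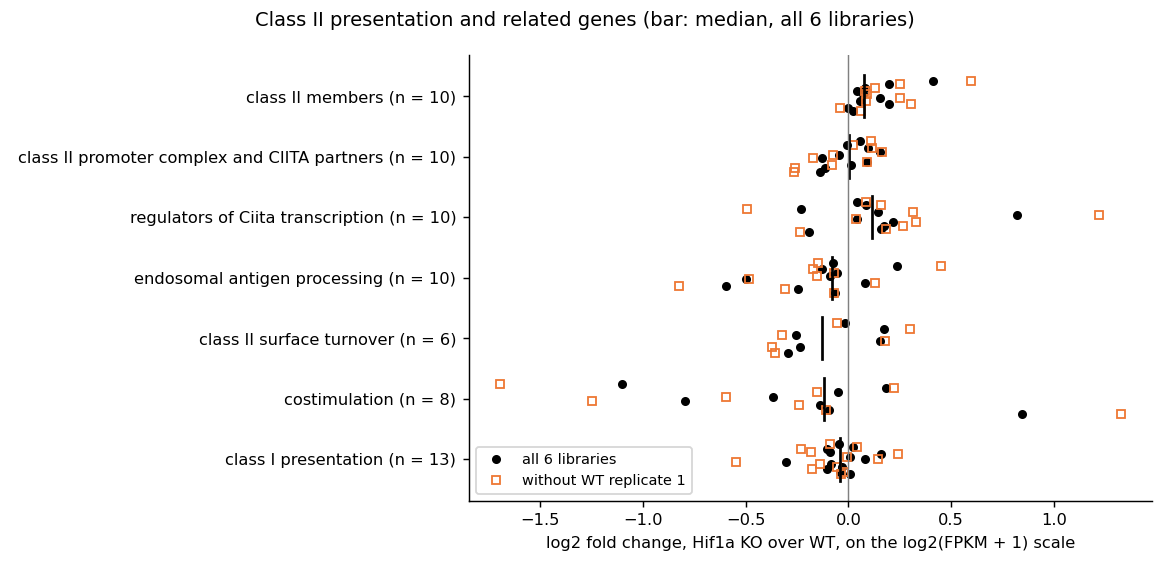
Log2 fold change of Hif1a KO over WT on the log2(FPKM + 1) scale for each tested gene of 7 lists, with all 6 libraries (black circles, bar for the list median) and without WT replicate 1 (open squares). The medians lie between -0.13 and 0.12, and the widest points are costimulatory genes.

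Macrophages and dendritic cells also express class II genes, and some of their markers moved with the libraries. Of 12 macrophage and monocyte markers, 6 were tested, 5 of them with a lower mean in Hif1a KO, and their median log2 fold change was -0.47 with 0 past the adjusted threshold. The list summed to 80.0, 182 and 128 FPKM in WT and to 80.6, 84.3 and 74.0 FPKM in Hif1a KO. In each library the largest part of this sum was Adgre1, at 59.8, 91.05 and 81.1 FPKM in WT and 67.7, 69.7 and 55.5 FPKM in Hif1a KO. Lyz2, the lysozyme of myeloid cells, was at 6.18, 58.3 and 26.2 FPKM in WT and at 0.5996, 2.23 and 3.70 FPKM in Hif1a KO. In the fit without WT replicate 1, which called H2-Ob, 3 of these 6 markers fell in Hif1a KO, against 5.75% of all genes tested. They were Lyz2 (log2 fold change -3.79, limma adjusted p = 0.0135) and, named after their values were seen, the complement gene C1qa (-1.43, adjusted p = 0.0228) and Ms4a7 (-0.71, adjusted p = 0.0369). H2-Ob was lowest in the WT libraries in which Lyz2 was highest. The part of other cells in the class II values was not tested.

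Of 9 dendritic cell markers, 5 were tested, all 5 with a lower mean in Hif1a KO (median log2 fold change -0.25), and their list summed to 17.01 to 18.7 FPKM in WT and 12.4 to 13.9 FPKM in Hif1a KO. Flt3 was at 4.74 to 7.74 FPKM, Itgax at 2.14 to 4.22 FPKM, and Siglech, a marker of plasmacytoid dendritic cells, at 5.36, 2.77 and 4.50 FPKM in WT and 1.86, 2.21 and 2.50 FPKM in Hif1a KO. Clec9a, Cd209a and Clec10a were listed at 0 in at least 4 of the 6 libraries. Of 8 T-cell markers, 1 was tested, Lck, at 131, 96.2 and 90.1 FPKM in WT and 133 to 137 FPKM in Hif1a KO, while Cd3e, which defines T cells, was at 0 to 0.134 FPKM. Lck rose in Hif1a KO without WT replicate 1 (log2 fold change 0.54, limma adjusted p = 0.00675). In that fit the dendritic cell marker Zbtb46, named after its values were seen, fell by 0.68 on the log2 scale (adjusted p = 0.019). The same fit called 9.4% of all genes tested.

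The 10 B-cell markers had a median log2 fold change of 0.06, and the 6 tested plasma cell markers one of 0.32, with 0 past the adjusted threshold in both. The mean was higher in Hif1a KO in 6 and lower in 4 of the B-cell markers, and higher in 5 and lower in 1 of the plasma cell markers. Without WT replicate 1, 1 of the 10 B-cell markers (Cd79b) and 2 of the 6 plasma cell markers (Jchain and Prdm1) were called higher in Hif1a KO. The share called higher over all genes tested was 3.64%. Cd79b and Jchain were named after their values were seen. Plasma cells are known to lose class II, and the plasma cell markers summed to 1407, 939 and 893 FPKM in WT and to 1346, 999 and 1732 FPKM in Hif1a KO. Hif1a KO replicate 3 had the highest sum of these markers and also the highest level of 6 of the 10 class II genes. The largest parts of its sum were Mzb1 (826 FPKM) and Xbp1 (474 FPKM), while Sdc1 was at 4.01 FPKM and Tnfrsf17 at 0.0822 FPKM. Over the libraries, Sdc1 was highest in WT replicate 1 (4.67 FPKM). The part of plasma cells in the class II values was not tested.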

How the data were processed

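Bulk RNA-seq of 6 libraries was used, grouped by their labels. The authors filtered the reads, aligned them with TopHat v2.0.12 (mm10), counted them per gene with HTSeq v0.6.1 and deposited FPKM values. Annotation release, strand option and treatment of reads with several alignments are not given in the sources used here. GENCODE vM21 named 46488 of 46983 gene IDs. Reads were recovered from the steps between values (95.3 to 95.7% of low values whole within 0.01), and their counting error was at most 3.2% for any class II gene.

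limma 3.58.1 (R 4.3.3) was fitted on all genes with a mean-variance trend and a pseudocount of 1, two-sided, and was tested on simulated data. Python 3.11.15 made the other tables. No set test was made. A few genes of the lists are left unreported. The genes and lists were chosen with earlier results of these data known. Genes named were the class II genes, list genes past the threshold or, of the rest, up to 4 per list with the largest change and no overlap, 8 markers or counterparts, and 5 nearest profiles. The spacing rule for X and Y cores and voom were added after the data were seen. Alternatives were a pseudocount of 0.1, quantile normalization, median-ratio scaling, no filter or a minimum mean FPKM of 5, a replicate block, library weights, no trend, and each library left out.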

Additional observations from a re-analysis of the deposited data

How the results depend on the processing

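With limma, 1449 genes were called with library weights, 1 of them among the 10 class II genes (H2-Ob, log2 fold change 0.55, adjusted p = 0.0315). Leaving out each library in turn gave 0 to 1251 calls over all genes and 0 to 1 among the class II genes. The 1251, with H2-Ob at 0.60, came without WT replicate 1, which library weights also gave the lowest weight (0.238). All other alternatives called 0 class II genes, with the adjusted p of H2-Ob between 0.611 and 1.0 (from 0.0168 with the former pair included), and the log2 fold change of H2-Ob was above 0 in 15 of 15 (0.31 to 0.60). The median over the class II genes was 0.04 to 0.14 with each library left out and 0.12 with median-ratio scaling.

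Signs changed in genes near 0, and the cause was not tested. With each library left out, H2-Ab1 ran from -0.0141 (without Hif1a KO replicate 3) to 0.136, H2-DMb1 from -0.0019 and H2-DMb2 from -0.0227 (both without Hif1a KO replicate 2) to 0.116 and 0.106, Cd74 from -0.0337 to 0.119, and Ciita from -0.0583 to 0.0588. Cd74 was at -0.0647 with quantile normalization, and Ciita at 0.0106 with it and at 0.0445 with median-ratio scaling.

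The correlations of same-numbered deviations were -0.1, 0.14 and -0.28 and showed no pairing by replicate number. With 3 libraries per group they cannot exclude such a pairing. With the replicate block, 0 genes were called, 0 of them class II, the median of the class II genes stayed at 0.08, and 694 genes had an unadjusted p under 0.05 against 929 without it. Depth limits these genes little, at 974 or more reads, and the spread between 3 libraries sets the width of the intervals.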
